A study of Homo sapiens with 6 samples.

Results

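The genes described here encode contractile and smooth-muscle actin cytoskeleton proteins: ACTA2, ACTG2, TAGLN, CNN1, MYL9, TPM1, TPM2, CALD1, MYH11 and LMOD1. They were chosen by gene name as the contractile genes of myofibroblast-like stroma, and all 10 were found among the 35639 genes of the table. The cells were hFOB 1.19, bone-forming precursor cells of human fetal origin that were kept at 34 °C, the temperature at which the viral T antigen used to immortalise them is active. They were transduced with a lentivirus carrying no histone (empty vector, EV), wild-type histone H3.3 (H3.3-WT) or H3.3 with tryptophan in place of glycine 34 (H3.3-G34W), called mutant below. Both histone constructs used an HA-tagged fruit fly H3.3 coding sequence, all vectors carried the dTomato marker on which the cells were sorted, and poly(A) RNA was collected 15 days after transduction. Values are normalised estimated counts, written below as signal, and each group had 2 libraries, of which EV 1 was left out. The comparisons therefore rest on EV 2, H3.3-WT 1 and 2, and H3.3-G34W 1 and 2. Groups follow the library titles and the matching column names of the table, although the labels' genotype entries swap H3.3-WT and H3.3-G34W. Were those entries right, the sign of each fold change of mutant against wild type would turn. The study's methods use the word replicates for separate wells of an experiment and give the RNA as collected in duplicate. Whether the 2 libraries of a group came from separate transductions is not given there, so the p-values measure the spread between these libraries.

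Contractile cells build stress fibres from actin filaments that are coated by tropomyosin and pulled by myosin II. Smooth-muscle actins, transgelin, calponin, caldesmon and smooth-muscle myosin are the classical markers of smooth muscle, and several of them are also made by activated fibroblasts, pericytes and cultured mesenchymal cells. Many of these genes are controlled by serum response factor (SRF) with cofactors of the myocardin family, which bind a DNA element called the CArG box and respond to the pool of unpolymerised actin.

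Before the members are compared, 2 libraries need to be set apart. EV 1 had a signal above 0 for 6951 genes, against 19242 to 21122 in the other libraries, and for 4 of the 10 members. It enters no comparison here. H3.3-G34W 1 held RNA of pluripotency genes: the 12 markers of pluripotent stem cells summed to 66576 there and to between 963.7 and 1142 in the other libraries. All 12 were highest in H3.3-G34W 1, and the most abundant of them, POU5F1, had 19441 there and at most 75.4 elsewhere. The 6 epithelial markers summed to 27263 in H3.3-G34W 1 and to between 21304 and 29987 elsewhere, led by KRT18 with 21561 there. Most of that sum is KRT18: the epithelial markers EPCAM and CDH1 had 2175 and 2104 in H3.3-G34W 1, and at most 46.6 and 64.9 in the other libraries. Leukocyte markers were low, with a sum over 8 genes of between 176 and 329 and CSF1R as their most abundant gene at 39.7 to 143. The part of this marker signal in the members' values was not tested, and the members' fold changes of the mutant against wild type are given together without H3.3-G34W 1 further below.

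The label of the line was set against bone and muscle markers. The 10 osteoblast markers summed to between 192710.4 and 262402 over the 5 libraries, led by COL1A2 with 90034 to 138799. Of the markers that define mature osteoblasts, IBSP (bone sialoprotein) was listed at 0 in 4 libraries and at 2.50 in EV 2, and SP7 (osterix) was at most 6.03. BGLAP (osteocalcin) was between 4.08 and 44.9, whereas SPP1 (osteopontin) was between 171 and 649 and ALPL (alkaline phosphatase) was 1216 in H3.3-G34W 1 and 107 to 428 in the other libraries. The smooth-muscle character of the list was also checked, since MYH11, the myosin heavy chain most specific to smooth muscle, was at most 74.5. The 12 smooth muscle markers, which include ACTG2, MYH11 and LMOD1, summed to 20044 in EV 2, 18608 and 26737 in H3.3-WT 1 and 2, and 13728 and 16114 in H3.3-G34W 1 and 2. They were led by SMTN (smoothelin) with 10594 to 18935, and PLN among them was at most 12.2. Of the 11 tested, 5 had both mutant libraries below both wild-type ones and 1 above, against 14.9% and 11.5% of all genes tested, and the median log2 fold change was -0.65. For H3.3-G34W 2 alone 5 were below and 2 above, against 23.4% and 31.8%. The median log2 difference of that library from the wild-type mean was -0.35. HHIP, a hedgehog-binding protein named after its values were seen, had 835 and 1063 in H3.3-WT and 403 and 380 in H3.3-G34W (log2 fold change -1.27, limma standard error 0.31, adjusted p = 0.9997). Pericyte and endothelial markers, 8 genes, summed to between 10841 and 23906, led by CSPG4 with 7077 to 19209, while CDH5, which defines endothelium, was at most 10.9. In bulk RNA, fewer cells of a type and less RNA per cell cannot be told apart.

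**Figure D1:**
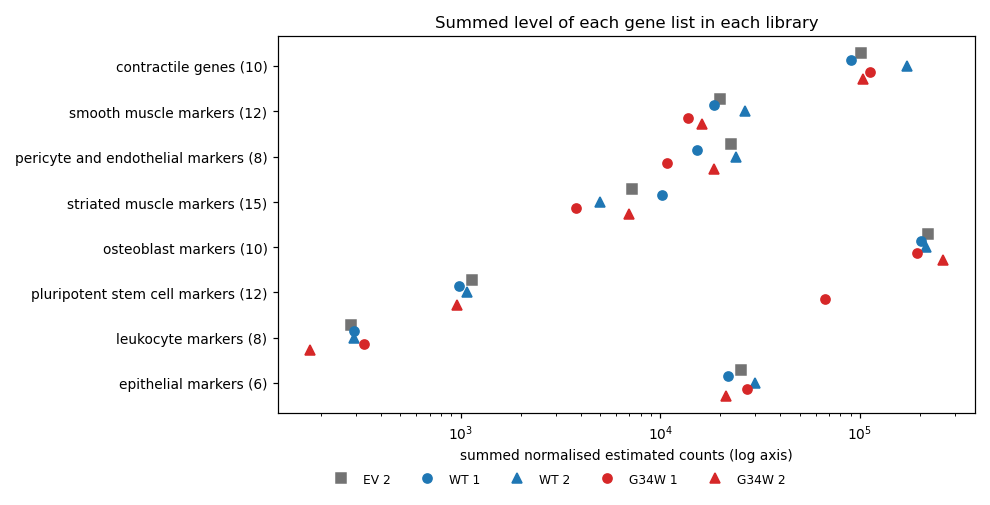
Summed signal (normalised estimated counts, log axis) of each gene list in each library, with the number of genes in brackets, squares for EV 2, blue for H3.3-WT, red for H3.3-G34W, circles for replicate 1 and triangles for replicate 2. The pluripotent stem cell markers stand at 66576 in H3.3-G34W 1 and at 1142 or less in the other libraries, and the contractile genes are highest in H3.3-WT 2, at 173259.

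Among the members, levels were compared per kilobase of the reference transcript (MANE Select) as the mean over the 5 libraries. The tropomyosins came first, TPM2 with a signal of 34386 and TPM1 with 20290 per kilobase. TAGLN followed with 5958, CALD1 with 3483, MYL9 with 2039 and CNN1 with 1536 per kilobase. The smooth-muscle actins came next, ACTG2 with 835 and ACTA2 with 749 per kilobase, and LMOD1 (33.9) and MYH11 (6.41) were lowest. The order of these actins rested on H3.3-WT 2, where ACTG2 had 2167 and ACTA2 526 per kilobase. In each other library ACTA2 was the higher, with 556 to 959 against 425 to 548 for ACTG2. Over the 5 libraries the range of TPM1 did not overlap that of TAGLN, nor ACTA2 that of LMOD1, nor LMOD1 that of MYH11. All other neighbours in this order overlapped in range. Within each library, however, TPM2 was above TPM1, TAGLN above CALD1 and CALD1 above MYL9. The order of MYL9 and CNN1 turned in H3.3-WT 1, and that of CNN1 and ACTG2 in H3.3-WT 2. The level of TAGLN depends on the transcript: its reference transcript has 3786 bases, whereas the median of its 7 coding transcripts is 1227 bases, with which it would have 18384 per kilobase, beside TPM1 at 19068. With median lengths for all members, CNN1 (3361 per kilobase) would also pass MYL9 (2982).

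How far related genes could share reads was read from sequence words of 31 bases. For ACTA2, 1.21% of the words in its reference transcript also occurred in transcripts of another gene, most of them in ACTC1 (cardiac actin), and for ACTG2 it was 2.58%. TPM1 shared 0.842% and TPM2 1.38%, in part with each other, and MYH11 1.80%, mainly with MYH9. CNN1, CALD1 and LMOD1 shared 0%, and MYL9 shared 0.472%. TAGLN was the exception, because 65.7% of its words also occurred in transcripts of the annotated gene ENSG00000280143, which was not analysed here, so its estimated counts are less certain than those of the other members.

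ACTA2 (ENSG00000107796; chr10:88935074-88991337, GRCh38.p14) encodes smooth-muscle alpha-actin, the usual marker of myofibroblasts. Its signal was 1274.5 in EV 2, 1293 and 709.8 in H3.3-WT 1 and 2, and 749.8 and 1022 in H3.3-G34W 1 and 2. Both mutant libraries lay between the wild-type ones, and H3.3-WT 2 was the lowest library. The group means were 1001 ± 412 (SD, n = 2) for H3.3-WT and 886 ± 193 (SD, n = 2) for H3.3-G34W. The log2 fold change, mutant against wild type, was -0.13 (limma standard error 0.35, 95% interval -0.93 to 0.67, adjusted p = 0.9997). It was 0.30 without H3.3-WT 1 and 0.09 without H3.3-G34W 1, so its sign rested on single libraries.

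ACTG2 (ENSG00000163017; chr2:73893008-73919865) encodes smooth-muscle gamma-actin, the actin of visceral muscle. Its signal was 822 in EV 2, 638 and 3253 in H3.3-WT 1 and 2, and 813 and 737 in H3.3-G34W 1 and 2. H3.3-WT 2 stood alone, 5.09 times H3.3-WT 1, and the other 4 libraries lay between 638 and 822. The log2 fold change, mutant against wild type, was -0.90 (limma standard error 0.62, 95% interval -2.29 to 0.50, adjusted p = 0.9997), the largest among the members. Without H3.3-WT 2 it was 0.28, and without H3.3-WT 1 it was -2.07. The 2 smooth-muscle actins thus differed in opposite directions between the same wild-type libraries, ACTA2 lower and ACTG2 higher in H3.3-WT 2.

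The RefSeq table (GRCh38.p14) held promoters for 7 of the 10 members, with 12 start sites; TAGLN, MYL9 and MYH11 were not searched. In the 250 bases before each start site a CArG box with no mismatch, which reads alike on both strands, was present at 1 of the 12, that of ACTG2, and in 1.16% of 35116 promoter windows of the same length. Boxes with a mismatch were not searched for, so a window without a perfect box may still hold such an element. The ACTA2 window at chr10:88952774-88953023, for example, holds ccctatatgg and ccttgtttgg, each 1 base from a perfect box. The TEAD-binding core GGAATG, searched on both strands as GGAATG and CATTCC, was present at 4 of the 12 start sites and in 11.9% of all windows. The ACTG2 window is shown because this gene had the largest difference between libraries. It lies on the plus strand at chr2:73892758-73893007, and the capitals mark its 2 CArG boxes, whose first bases lie at -110 and -73 from the start site.
ACTG2 promoter: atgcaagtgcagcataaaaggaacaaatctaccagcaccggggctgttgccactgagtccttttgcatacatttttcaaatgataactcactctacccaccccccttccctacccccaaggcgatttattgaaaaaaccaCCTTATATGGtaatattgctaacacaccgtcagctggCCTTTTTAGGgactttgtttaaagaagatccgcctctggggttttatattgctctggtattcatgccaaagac

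TAGLN (ENSG00000149591; chr11:117199294-117207465) encodes transgelin, also called SM22, an actin-bundling protein. Its signal was 17710.1 in EV 2, 14096 and 39669 in H3.3-WT 1 and 2, and 23567 and 17746 in H3.3-G34W 1 and 2. The library H3.3-WT 2 was 2.81 times H3.3-WT 1 and above every other library used. The log2 fold change, mutant against wild type, was -0.21 (limma standard error 0.44, 95% interval -1.20 to 0.78, adjusted p = 0.9997), and it was 0.54 without H3.3-WT 2.

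CNN1 (ENSG00000130176; chr19:11538851-11550323) encodes calponin 1, which binds actin and slows the myosin ATPase. It varied least of the members in these libraries, with a signal of 2209.6 in EV 2, 2087 and 2679.9 in H3.3-WT 1 and 2, and 2251 and 2284 in H3.3-G34W 1 and 2. As deposited, the mutant libraries differed from each other by 0.02 on the log2 scale. Library scale enters here: the median ratio of a library to the geometric mean of the 5 was 0.89 for H3.3-G34W 1 and 1.05 for H3.3-G34W 2. The log2 fold change of CNN1, mutant against wild type, was -0.06 (limma standard error 0.25, adjusted p = 0.9997), and 0.016 after rescaling by these ratios. CALD1 (ENSG00000122786; chr7:134711499-134970729), which encodes the actin- and myosin-binding protein caldesmon, had a signal of 14824 in EV 2, 15967 and 21989.9 in H3.3-WT 1 and 2, and 18149 and 16329 in H3.3-G34W 1 and 2. Its log2 fold change, mutant against wild type, was -0.12 (limma standard error 0.27, adjusted p = 0.9997). For both genes H3.3-WT 2 was the highest library as deposited, which after rescaling no longer held for CNN1.

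The tropomyosins, which lie along the actin filament and govern access of myosin to it, had the highest mean signal of the members. In H3.3-WT 2, however, the signal of TAGLN (39669) was above that of TPM1. TPM1 (ENSG00000140416; chr15:63042747-63071915) had a signal of 20878 in EV 2, 19914 and 35648 in H3.3-WT 1 and 2, and 26999.6 and 20027 in H3.3-G34W 1 and 2. TPM2 (ENSG00000198467; chr9:35681993-35690056) had 38066.5 in EV 2, 32773 and 60076 in H3.3-WT 1 and 2, and 34641 and 39038.5 in H3.3-G34W 1 and 2. H3.3-WT 2 exceeded H3.3-WT 1 by 1.79 times for TPM1 and 1.83 times for TPM2, and the remaining libraries stayed below it. The log2 fold changes, mutant against wild type, were -0.20 (standard error 0.33) for TPM1 and -0.27 (standard error 0.34) for TPM2, each with a limma adjusted p of 0.9997.

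Of the myosin genes, MYL9 (ENSG00000101335; chr20:36541519-36551447) encodes the regulatory light chain of smooth-muscle and non-muscle myosin II, whose phosphorylation starts contraction. Its signal was 5396 in EV 2, 3209 and 9098 in H3.3-WT 1 and 2, and 4731 and 5973 in H3.3-G34W 1 and 2. The library H3.3-WT 2 was 2.84 times H3.3-WT 1, with all other libraries in between, and the log2 fold change, mutant against wild type, was -0.02 (limma standard error 0.43, adjusted p = 0.9997). MYH11 (ENSG00000133392; chr16:15703135-15857028) had a signal of 74.5 in EV 2, 29.0 and 40.0 in H3.3-WT 1 and 2, and 19.3 and 57.7 in H3.3-G34W 1 and 2. It was the 1 member whose mutant libraries were farther apart than the wild-type ones, and its log2 fold change was -0.02 (limma standard error 0.77, adjusted p = 0.9997).

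LMOD1 (ENSG00000163431; chr1:201896456-201946548) encodes leiomodin 1, which nucleates actin filaments in smooth muscle. Its signal was 197 in EV 2, 155 and 95.3 in H3.3-WT 1 and 2, and 101 and 117 in H3.3-G34W 1 and 2. It ran as ACTA2 did, with H3.3-WT 2 lowest, and its log2 fold change, mutant against wild type, was -0.16 (limma standard error 0.50, adjusted p = 0.9997).

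**Figure D2:**
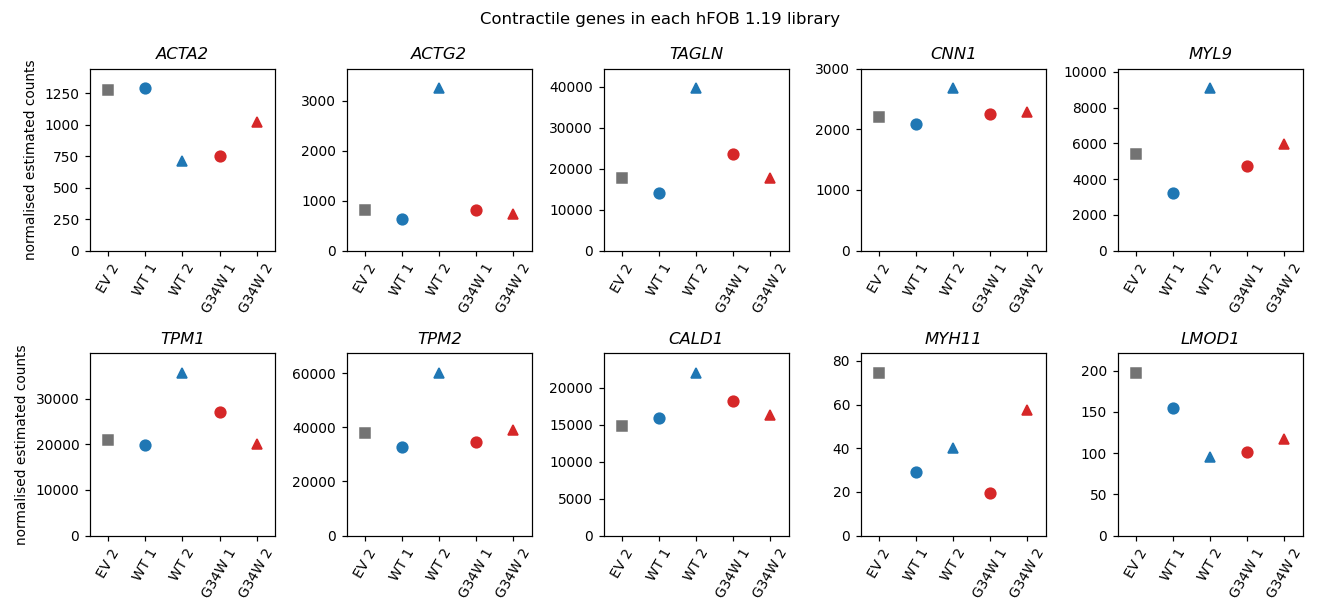
Signal (normalised estimated counts, linear axis from 0) of each contractile gene in each library used, with 1 point per library. H3.3-WT 2 is the highest library for 7 of the 10 genes (6 of them after rescaling to a median ratio of 1), at 3253 for ACTG2 and 39669 for TAGLN, and the lowest for ACTA2 (709.8) and LMOD1 (95.3).

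All 10 members passed the filter on low values (a signal of at least 10 in 2 of the 5 libraries), which 16436 genes passed in all. In the comparison of the genotypes, H3.3-G34W against H3.3-WT, limma called 0 members at an adjusted p under 0.05, and 0% of all genes tested. The unadjusted p was under 0.05 for 466 genes (280 higher, 186 lower in the mutant) and 0 members; no other tool was run. With 2 libraries against 2, an exact test cannot give a p below 0.333. Neither direction held a member without overlap: 0 of 10 members had both H3.3-G34W libraries above both H3.3-WT libraries (11.5% of all genes tested), and 0 of 10 had both below (14.9%). The fitted log2 fold changes were below 0 for 10 of 10 members, with a median of -0.14, against 9440 of 16436 genes and a median of -0.06, but CNN1, MYL9 and MYH11 were above 0 once each library was rescaled to a median ratio of 1. The members' median was then -0.067.

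The difference between the wild-type libraries was larger than that between genotypes, a pattern counted after the values were seen. For 9 of 10 members both H3.3-G34W libraries lay between the 2 H3.3-WT libraries, against 16.5% of all genes tested. The reverse, both H3.3-WT libraries between the H3.3-G34W libraries, held for 1 member (MYH11) and 18.4% of genes. The wild-type libraries were farther apart on the log2 scale than the mutant ones for 9 of 10 members and 45.4% of genes. H3.3-WT 2 was above H3.3-WT 1 for 8 of 10 members (58.7% of genes) and over 2 times as high for 3 of them, ACTG2, TAGLN and MYL9 (7.04% of genes, and 1.94% of the 9321 genes with a mean signal above 500). As deposited, it was the highest of the 5 libraries for 7 of 10 members (30.9% of genes) and the lowest for 2 of them (16.4% of genes).

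The median log2 difference, H3.3-WT 2 minus H3.3-WT 1, was 0.65 over the members and 0.11 over all genes tested. As absolute log2 differences, the medians between the wild-type libraries were 0.85 over the members and 0.37 over all genes, and between the mutant libraries 0.27 and 0.41. EV 2 was nearer to H3.3-G34W 2 (members' median absolute log2 difference 0.14) and to H3.3-WT 1 (0.27) than to H3.3-G34W 1 (0.33) and H3.3-WT 2 (0.81). Over all genes tested, the same medians were 0.24 for H3.3-G34W 2, 0.26 for H3.3-WT 1, 0.41 for H3.3-G34W 1 and 0.31 for H3.3-WT 2. The libraries differ in scale, and dividing the values by each library's median ratio lowered H3.3-WT 2 against H3.3-WT 1 by 0.13 on the log2 scale. The members' median difference was then 0.52, H3.3-WT 2 was highest for 6 of 10 members (21.9% of genes), and both mutant libraries lay between the wild-type ones for 6 of 10 members (19.5% of genes). Being 1 library against 1, the difference between H3.3-WT 1 and 2 has no replicate check and was not tested.

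**Figure D3:**
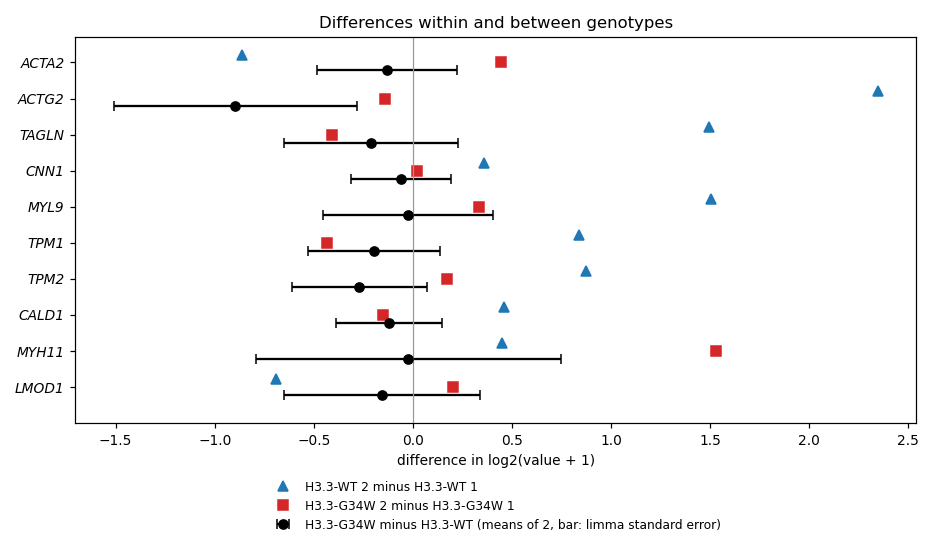
Differences in log2(value + 1) for each contractile gene, between the 2 H3.3-WT libraries (blue triangles), between the 2 H3.3-G34W libraries (red squares) and between the genotype means (black circles with limma standard errors). The wild-type libraries differ by up to 2.35 (ACTG2), whereas the genotype differences lie between -0.90 and -0.02.

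Single libraries set the direction of the genotype comparison. Without H3.3-WT 2, 8 of 10 members had a fold change above 0 and the members' median log2 fold change was 0.18; without H3.3-WT 1, 2 of 10 were above 0 and the median was -0.48. Without H3.3-G34W 1, 3 of 10 were above 0 and the median was -0.12, and without H3.3-G34W 2 they were 1 of 10 and -0.22. Without H3.3-G34W 1 the log2 fold changes of ACTA2, MYL9 and MYH11 were 0.09, 0.14 and 0.74, and those of the other 7 lay between -0.97 for ACTG2 and -0.05 for CNN1. In these fits the lone library of a genotype is assumed to vary like the others. The limma count over all genes was 11 without H3.3-WT 1, 1 without H3.3-WT 2, 0 without H3.3-G34W 1 and 117 (107 higher) without H3.3-G34W 2, where H3.3-G34W 1 with its pluripotency RNA stood alone for the mutant. None of these calls was a member. The lowest adjusted p of a member in any of them was 0.099, without H3.3-WT 1.

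**Figure D4:**
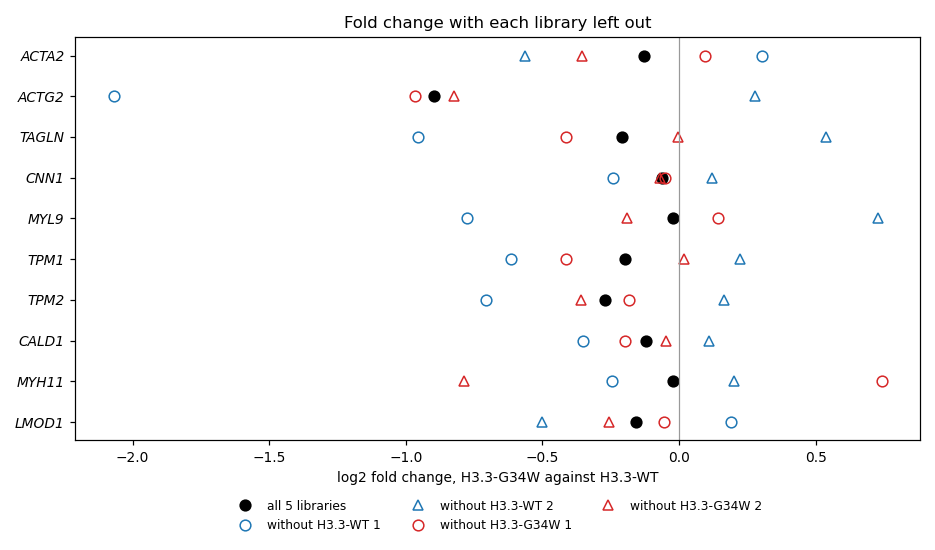
Log2 fold change of H3.3-G34W against H3.3-WT for each contractile gene in the fit of all 5 libraries (filled circles) and with 1 library left out (open symbols). Without H3.3-WT 2, 8 of the 10 genes lie above 0; with all 5 libraries all 10 lie below 0, of which 3 turn after rescaling to a median ratio of 1.

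Against the empty vector only EV 2 could be used, so its spread is taken from the other groups. For H3.3-G34W against EV, limma called 0 members and 0% of genes, with 324 genes and 0 members at an unadjusted p under 0.05; 4 of 10 members were above 0 (6 of 10 after rescaling), with a median log2 fold change of -0.04 (0.017 after rescaling, and -0.029 without H3.3-G34W 1). For H3.3-WT against EV, limma called 0 members and 0% of genes, with 175 genes and 0 members at an unadjusted p under 0.05; 7 of 10 members were above 0 (6 of 10 after rescaling), with a median of 0.16. That median was -0.27 without H3.3-WT 2 and 0.61 without H3.3-WT 1. These comparisons share EV 2. Its signal lay inside the range of the other 4 libraries for 7 of 10 members, was the highest for MYH11 and LMOD1 and the lowest for CALD1. The counts over all genes for H3.3-G34W against EV were 58 without H3.3-G34W 2, 2 without H3.3-WT 1, and 1 without either H3.3-WT 2 or H3.3-G34W 1. For H3.3-WT against EV they were 11 without H3.3-WT 1, 2 without H3.3-WT 2, and 1 without either H3.3-G34W library. None was a member.

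Around the members, 6 further lists of the contractile apparatus and its control held 99 genes, of which 97 passed the filter. For the mutant against the wild type, limma called 0 of the 97 at an adjusted p under 0.05, and 3 had an unadjusted p under 0.05 (1 higher, 2 lower). Both mutant libraries were above both wild-type ones for 7 of the 97 and below for 15, shares of 7.22% and 15.5%, against 11.5% and 14.9% of all genes tested. With H3.3-G34W 2 alone for the mutant, 26 of the 97 were above both wild-type libraries and 21 below, shares of 26.8% and 21.6%, against 31.8% and 23.4% of all genes tested. The median log2 fold change was -0.12 over these genes and -0.06 over all genes tested. For H3.3-G34W 2 alone the median log2 difference from the wild-type mean was -0.0085, against 0.044 over all genes tested. H3.3-WT 2 was the highest library for 41 of the 97 (42.3%).

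In the list of paralogs and other filament proteins, 4 of 21 genes tested lay above both wild-type libraries and 0 below. Their shares were 19% and 0%, against 11.5% and 14.9% of all genes tested. For H3.3-G34W 2 alone 6 of the 21 lay above and 2 below (28.6% and 9.52%), against 31.8% and 23.4%. The most abundant, the cytoplasmic actin ACTB, had a signal of 237004 in EV 2, 207886 and 316349 in H3.3-WT 1 and 2, and 213249 and 251655 in H3.3-G34W 1 and 2, the same order of wild-type libraries as for most members. TMOD1, which caps the slow-growing end of actin filaments, was low, with 8.70 and 2.51 in H3.3-WT and 20.6 and 27.2 in H3.3-G34W. In the list of smooth-muscle structural proteins, 1 of 20 was above and 5 were below (5% and 25%), against 11.5% and 14.9% of all genes tested. With H3.3-G34W 2 alone, 3 were above and 5 below (15% and 25%), against 31.8% and 23.4%. DES, the intermediate filament protein of muscle, had a signal of 2508 in EV 2, 3667 and 1629 in H3.3-WT 1 and 2, and 611 and 1599 in H3.3-G34W 1 and 2 (log2 fold change -1.30, limma standard error 0.49, adjusted p = 0.9997). For H3.3-G34W 2 alone its log2 difference from the wild-type mean was -0.61. LDB3, a Z-disc protein, had 17.9 and 3.81 in H3.3-WT and 37.7 and 25.2 in H3.3-G34W, and the most abundant gene, VIM, had 145103 and 233828 against 109267 and 142133.

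The myosin light-chain switch, the kinases, phosphatase subunits and other regulators that set the phosphorylation of MYL9, held 6 of 15 genes with both mutant libraries below both wild-type ones and 0 above. Of all genes tested, 14.9% were below and 11.5% above. MYLK, the light-chain kinase, had a signal of 12246 in EV 2, 10098 and 10861 in H3.3-WT 1 and 2, and 6370 and 8809 in H3.3-G34W 1 and 2. Its log2 fold change was -0.48 (limma standard error 0.26, adjusted p = 0.9997), and H3.3-G34W 1 was its lowest library. For H3.3-G34W 2 alone the log2 difference from the wild-type mean was -0.25, and 8 of the 15 genes lay below both wild-type libraries and 4 above, against 23.4% and 31.8% of all genes tested. RHOA, the most abundant of the list, had 27274 and 29323 in H3.3-WT and 24867 and 30622 in H3.3-G34W. MYL9 itself had no such order.

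Among 14 genes of transcriptional control, 1 lay above and 1 below both wild-type libraries (7.14% each), against 11.5% and 14.9% of all genes tested. For H3.3-G34W 2 alone 3 lay above and 1 below (21.4% and 7.14%), against 31.8% and 23.4%. GATA6 had a signal of 125 and 213.7 in H3.3-WT and 213.8 and 322 in H3.3-G34W, with 295 in EV 2. FHL2, a LIM-domain cofactor and the most abundant of the list, had 9644 and 9130 in H3.3-WT and 7439 and 8401 in H3.3-G34W. SRF and genes of the myocardin family, which act on the members' promoters, are named here after their values were seen. SRF had 3480 and 5374 in H3.3-WT 1 and 2 and 3835 and 4656 in H3.3-G34W, and MYOCD had 611 and 1006 in H3.3-WT and 530.1 and 756 in H3.3-G34W. MRTFA had 1996 and 2742 in H3.3-WT 1 and 2, whereas MRTFB was lower in H3.3-WT 2, with 424 and 149.

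Of 13 ligands and receptors that act on contractile cells, 1 lay above and 2 below (7.69% and 15.4%), against 11.5% and 14.9% of all genes tested. For H3.3-G34W 2 alone 4 lay above and 3 below (30.8% and 23.1%), against 31.8% and 23.4%. EDNRB, an endothelin receptor, had a signal of 11.6 in EV 2, 1.22 and 2.77 in H3.3-WT 1 and 2, and 849 and 6.23 in H3.3-G34W 1 and 2. The size of its difference rested on H3.3-G34W 1, the library with pluripotency RNA. PDGFRA had 149.8 and 91.7 in H3.3-WT and 60.2 and 47.3 in H3.3-G34W, and the most abundant, TGFBR2, had 5499 and 6613 against 4183 and 5690. Of 14 matrix and surface genes of myofibroblasts, 0 lay above and 1 below (0% and 7.14%), against 11.5% and 14.9% of all genes tested. The gene below, COL3A1, had 51115 and 37814 in H3.3-WT and 31708 and 37266 in H3.3-G34W. For H3.3-G34W 2 alone 6 of the 14 lay above and 2 below (42.9% and 14.3%), against 31.8% and 23.4%. THBS1, which encodes thrombospondin 1 and was the most abundant, had a signal of 114453 in EV 2, 59895 and 255665 in H3.3-WT 1 and 2, and 86236 and 87132 in H3.3-G34W 1 and 2. It too was far higher in H3.3-WT 2 than in H3.3-WT 1, with the mutant libraries in between.

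**Figure D5:**
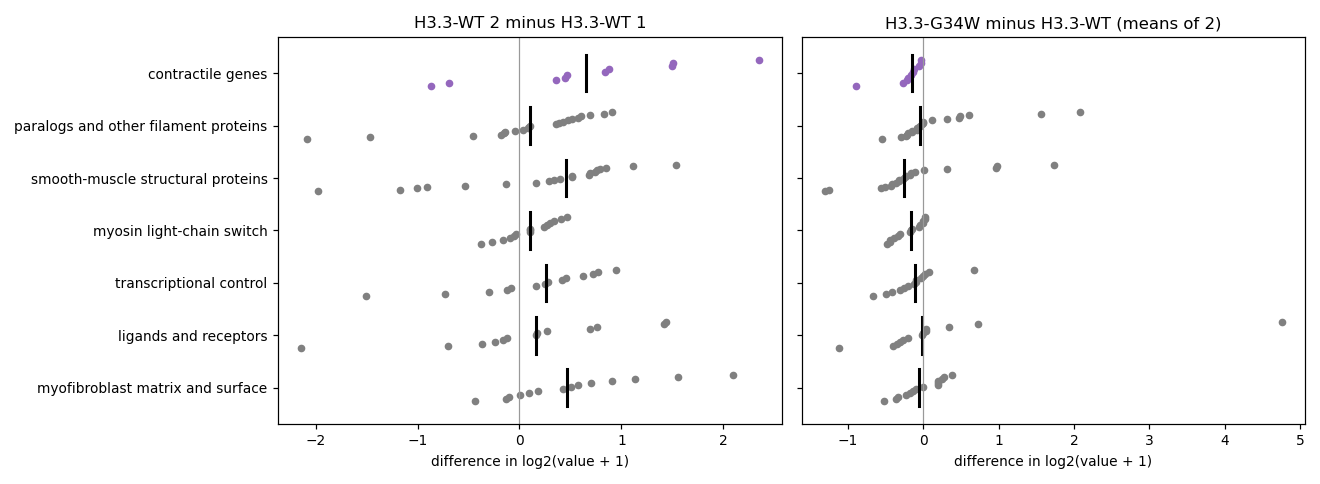
Differences in log2(value + 1) for each gene of the contractile list and of 6 further lists, between the H3.3-WT libraries on the left and between the genotype means on the right, with 1 point per gene and a bar at each list's median. The medians of the contractile genes are 0.65 on the left and -0.14 on the right.

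Genes most like 3 of the members were found by the root mean square difference of centred log2 signal over the 5 libraries. For ACTA2 they were PCNX1 (0.047), RHOD (0.048) and ZBTB49 (0.059), and 17 genes lay within 0.1. PCNX1, for example, had a signal of 3161 and 1782 in H3.3-WT 1 and 2 and 1813 and 2715 in H3.3-G34W 1 and 2. For TAGLN they were LRRC15 (0.078), MSR1 (0.098) and DNAH2 (0.11), with 2 genes within 0.1. LRRC15 had 295 and 751 in H3.3-WT 1 and 2 and 428 and 344 in H3.3-G34W 1 and 2. For CNN1 they were EBP (0.018), MRPL37 (0.021) and OGFOD1 (0.025), but 755 genes lay within 0.1, so many genes were as flat as CNN1 in these libraries.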

How the data were processed

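The authors aligned reads of poly(A) RNA to Ensembl transcripts (GRCh38) with kallisto, summed them per gene and normalised them with DESeq2, per the labels and the study's methods. The deposited values are this signal: estimated counts scaled per library, not whole reads, so the count tests first planned were not run, the depth is unknown, and precision was judged from the spread between libraries. Values were transformed as log2(value + 1), which understates changes of low genes. Genes at 10 or above in 2 or more of the 5 libraries (16436) were fitted in limma 3.58.1 (R 4.3.3) with a variance trend and no covariates, and p-values were adjusted over all of them by the Benjamini-Hochberg method. The fit was tested on simulated data with libraries of equal scale and none that stood apart. How it behaves with libraries such as H3.3-G34W 1 was not tested.

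Members and lists were chosen with earlier results of these data known. Genes named from the 6 further lists were, per list, any past the threshold, the largest rise and fall of H3.3-G34W against H3.3-WT among those without overlap, and the most abundant gene; from each marker list the most abundant gene; and for ACTA2, TAGLN and CNN1 the 3 genes most like them. Defining markers and other genes outside this rule were named after their values were seen. The lists are paralogs and other filament proteins, smooth-muscle structural proteins, the myosin light-chain switch, transcriptional control, ligands and receptors, myofibroblast matrix and surface, and markers of smooth muscle, pericytes and endothelium, striated muscle, osteoblasts, pluripotent stem cells, leukocytes and epithelium. Coordinates and promoters are from RefSeq (GRCh38.p14), matched by symbol; transcript lengths and shared words of 31 bases are from GENCODE transcripts of GRCh37, used without coordinates. Alternatives were no variance trend, pseudocounts of 0.1 and 10, no filter, a replicate block, other sets of libraries, rescaled values and each library left out in turn. Figures were drawn with matplotlib 3.10.9.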

Additional observations from a re-analysis of the deposited data

Results flagged for a closer look

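EV 1, which no comparison used, had a signal of 29748 for ACTA2 and 467267 for TAGLN, above EV 2 at 1274.5 and 17710.1. These are 23.3 and 26.4 times EV 2. The median ratio of EV 1 to EV 2 was 23.6 over 509 genes of chromosome 10, where ACTA2 lies, and 23.9 over 723 genes of chromosome 11, where TAGLN lies, counting genes with a mean signal above 50 in the other libraries. The values of these members in EV 1 were thus of the size common to their chromosomes in that library.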

How the results depend on the processing

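No alternative called a member in any of the 3 comparisons; the lowest adjusted p of a member from limma was 0.099 (H3.3-G34W against H3.3-WT without H3.3-WT 1). Settings with no variance trend, no filter on low values, or only the H3.3-WT and H3.3-G34W libraries kept the sign of every member they could fit and a count of 0 genes. Count tests were not run, because the values are not counts. The cause of each change below was not tested. With a pseudocount of 0.1, limma called 1 gene in each comparison with EV, and with a pseudocount of 10 the log2 fold change of MYH11 (H3.3-G34W against H3.3-WT) became 0.013. Rescaled to a median ratio of 1, the log2 fold changes of CNN1, MYL9 and MYH11, mutant against wild type, became 0.016, 0.054 and 0.051. Against EV, those of the mutant became 0.031 for MYL9 and 0.0033 for TPM2, and that of the wild type became -0.022 for MYL9.

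The replicate numbers come from the titles and pair the libraries in name only: across 16436 genes, which are not independent, the departures of same-numbered libraries from the mean of their genotype had r = 0.067. With the replicate block the counts of genes were 0 in all 3 comparisons, with 740 genes at an unadjusted p under 0.05 for the mutant against the wild type, whose members' median log2 fold change was again -0.14. For H3.3-G34W against EV the members' median became 0.23 with the block, and the fold changes of ACTG2, MYL9 and TPM2 became 0.46, 0.44 and 0.21. For H3.3-WT against EV the members' median moved from 0.16 to 0.43 with the block, with ACTG2 at 1.36 and MYL9 at 0.46.

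With EV 1 included, listed at 0 for 6 of the 10 members, the fits counted 0 genes. The members' median log2 fold change became 3.86 for H3.3-G34W against EV, with ACTG2 at 4.76, TAGLN at -2.15, MYL9 at 6.18, TPM2 at 7.56, MYH11 at 0.49 and LMOD1 at 2.96. For H3.3-WT against EV the median became 4.39, with TAGLN at -1.94, MYH11 at 0.52 and LMOD1 at 3.12.

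Leaving out each library in turn gave 0 to 117 called genes for the mutant against the wild type, 1 to 58 for the mutant against EV and 1 to 11 for the wild type against EV. Log2 fold changes of H3.3-G34W against H3.3-WT then ranged from -0.56 to 0.30 for ACTA2, -2.07 to 0.28 for ACTG2, -0.96 to 0.54 for TAGLN, -0.24 to 0.12 for CNN1, -0.78 to 0.73 for MYL9, -0.62 to 0.22 for TPM1, -0.71 to 0.17 for TPM2, -0.35 to 0.11 for CALD1, -0.79 to 0.74 for MYH11 and -0.50 to 0.19 for LMOD1. Those of H3.3-G34W against EV ranged from -0.19 to 0.15 for MYL9, -0.060 to 0.37 for TPM1 and -0.14 to 0.036 for TPM2. Those of H3.3-WT against EV ranged from -0.84 to 0.021 for ACTA2, -0.36 to 1.98 for ACTG2, -0.33 to 1.16 for TAGLN, -0.083 to 0.28 for CNN1, -0.75 to 0.75 for MYL9, -0.068 to 0.77 for TPM1 and -0.22 to 0.66 for TPM2.

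Depth cannot be read from the values, so how far counting error adds to the spread of low members such as MYH11 is unknown. With 2 libraries a genotype the intervals are wide: for TAGLN the 95% interval of the log2 fold change, mutant against wild type, ran from -1.20 to 0.78.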

Other observations

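Striated muscle genes had a signal in these osteoblastic libraries. The 15 markers of striated muscle summed to 7257 in EV 2, 10198 and 4965 in H3.3-WT 1 and 2, and 3803 and 7008 in H3.3-G34W 1 and 2, and the most abundant was DES. The genes named next were chosen after their values were seen. MYOD1, the factor that starts skeletal muscle differentiation, had 853 in EV 2, 916 and 526 in H3.3-WT 1 and 2, and 139 and 699.9 in H3.3-G34W 1 and 2. MYF5, another myogenic factor, had the opposite order of the wild-type libraries, with 109 in EV 2, 79.4 and 286 in H3.3-WT 1 and 2, and 31.2 and 11.4 in H3.3-G34W 1 and 2 (log2 fold change of mutant against wild type -2.93, limma standard error 0.79, adjusted p = 0.9997). TTN (titin) was between 527 and 1198 in the 5 libraries, and TNNT1 (slow skeletal troponin T) between 1227 and 2383. Of the heart genes in the list, TNNT2 (cardiac troponin T) was between 227 and 1236. TNNI3 was 203 in H3.3-G34W 1 and at most 38.4 elsewhere, MYL7 was 32.3 in H3.3-G34W 1 and at most 1.11 elsewhere, and MYH6 and MYH7 were at most 8.58 and 6.11. Of the 12 markers tested, 2 (MYF5 and MYL2) were higher in H3.3-WT 2 than in H3.3-WT 1, with a median log2 difference of -1.27 over the list, whereas 8 of 10 contractile genes were higher there, with a median of 0.65. ACTC1, the cardiac actin, had 1732 and 408 in H3.3-WT 1 and 2, against 638 and 3253 for ACTG2.

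Some matrix genes had the same order of the wild-type libraries as most contractile genes. Besides THBS1, TNC (tenascin C), for example, was over 2 times as high there as in H3.3-WT 1, with 18986 in H3.3-WT 1 and 55733 in H3.3-WT 2. Of the 14 myofibroblast matrix and surface genes, 11 were higher in H3.3-WT 2, with a median log2 difference of 0.47, against 58.7% of all genes tested and a median of 0.11. The other 3 were lower there: COL1A2 had 98769 and 90034 in H3.3-WT 1 and 2, COL3A1 51115 and 37814, and FAP 1399 and 1306. Whether these and the contractile genes share a source of difference was not tested.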
